A study of Rattus norvegicus with 6 samples.

Results

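The 200 brightest lncRNA probes of the rat hippocampus were examined in denervated and normal tissue. They were chosen by their mean log2 normalized intensity over 6 arrays, so their high level is a description of how they were selected and was not tested. Of 6716 probes in the table, 6711 were lncRNA probes and 6708 of these were ranked, which leaves 6508 other lncRNA probes for comparison. The denervated group held 3 hippocampi of Sprague-Dawley rats taken 7 days after transection of the fimbria-fornix (FF), the fibre bundle that carries cholinergic input from the basal forebrain into the hippocampus. The normal group held 3 untreated hippocampi of the same strain. All were from adult rats of both sexes, and the sex of each sample is not given in the sources used here. In the paper's quality control, the RNA integrity number was higher for every treated sample than for every normal one. Its part in the group differences was not tested. The methods describe denervated and untreated tissue of 3 paired rats, so both tissues may have come from the same animals, yet no label says which denervated and normal samples belong together. Across these probes denervated sample 3 and normal sample 2 resembled each other more than the other samples of their own groups, so the group comparisons are also given without both.

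Long noncoding RNAs (lncRNAs) are transcripts without a known protein product that can guide chromatin proteins, bind microRNAs or act through the mere process of their transcription. Many are abundant in brain, where some mark single regions or cell types. The array places lncRNA probes beside probes for the genes of small structured RNAs such as microRNAs, whose hairpin precursors are cut to short mature RNAs that pair with target mRNAs mainly through the seed near the 5′ end. A probe's intensity depends on its own sequence as well as on the amount of its transcript, so the rank is one of signal and not of transcript copies. In whole hippocampus, fewer cells of a type and less RNA per cell cannot be told apart.

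Only 12 of the 200 transcripts carried a gene symbol in the RefSeq annotation, and 9 of those 12 were microRNA genes. Mature sequences were found for 7 of the 9, and they are shown to compare the seeds of the named microRNA genes. They are taken from RefSeq (GRCr8) and run 5′ to 3′, with the seed, bases 2 to 8, in capitals.
rno-miR-935: cCAGUUACcgcuuccgcuaccgc
rno-miR-702-3p: uGCCCACCcuuuaccccacucca
rno-miR-702-5p: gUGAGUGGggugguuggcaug
rno-miR-3594-3p: cACACCGCcucugcccgcuagu
rno-miR-3594-5p: cCCAGGGCagagcagugugaa
rno-miR-3544: aACUCCUGcaugacgccguuccc
rno-miR-3573-3p: uUCCUAACucugcccccucccau
rno-miR-3573-5p: uGAGGGGCagugauagaaagga
rno-miR-3569: gGAGGACAgcagacucagguc
rno-miR-3578: gCGAAUAUaacacggucgaucu
The 10 mature sequences had 10 different seeds, so no seed was shared. The genes of miR-3544 and miR-3578 both lie on chromosome 6 of GRCr8, at chr6:134321165-134321187 and chr6:134579472-134579493 on the minus strand. The remaining microRNA genes were Mir328 and Mir150. The arrays read labelled RNA amplified from total RNA, and a probe for a microRNA gene does not measure the mature microRNA.

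By the transcript each probe was designed on, 109 of the 200 (54.5%) were rat matches of mouse noncoding transcripts, against 3356 of all ranked probes (50.0%). Ensembl rat transcripts made up 44 (22.0%), against 1683 (25.1%) of all ranked probes. RefSeq predicted noncoding transcripts (XR) made up 34 (17.0%), against 1291 (19.2%). RefSeq curated noncoding transcripts (NR) made up 13 (6.5%), against 378 (5.64%). The sources were thus mixed in nearly the proportions of the array. The share of mouse matches was 61.0% among the first 100 ranks and 52.0% among the first 400. Of the 109 mouse matches, 14 belong to the transcripts of a single position described below. The genomic span of the mouse matches had a median of 3850 bases (48 to 388599), against 5368 bases over all ranked mouse matches, and 17.4% of them were at most 150 bases long, against 18.4%. For the Ensembl transcripts the median span was 875.5 bases, against 675 bases over all ranked Ensembl transcripts. Positions were listed for 153 of the 200. Chromosome 4 held 17 of them, which was 5.69% of its ranked probes, and 7 of these overlap at a single position described below. The next highest shares were on chromosomes 12, 20 and 8, which held 6, 7 and 10, or 5.17%, 5.07% and 4.17%. Chromosome 1 held the most of the 200, with 22, which was 3.49% of its ranked probes. The lowest share was 1.34%, on chromosome 10. Positions of probes are those of the array annotation, whose genome build is not given in the sources used here.

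The median intensity of the 200 probes was alike in all samples, while single probes differed between them. Their median was 14.23, 14.16 and 14.23 in the denervated samples and 14.14, 14.28 and 14.13 in the normal samples on the log2 scale, where the median over all ranked probes was 10.17 to 10.18. All 6 values were above 13 for 177 of the 200. The lowest single value was 11.35, for lncRNA1519 in denervated sample 3. Ranking each array by itself, 67 of the 200 were among the brightest 200 of all 6 arrays, 50 of 5 arrays and 2 of a single array, and 350 different probes were among the brightest 200 of at least 1 array. The rank limit cut through a continuous range: lncRNA2903, lncRNA4426 and lncRNA1384 were the last inside it with means of 13.68, 13.67 and 13.67, and lncRNA2153, lncRNA6548 and lncRNA6319 were the first outside with means of 13.66 each.

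**Figure D1:**
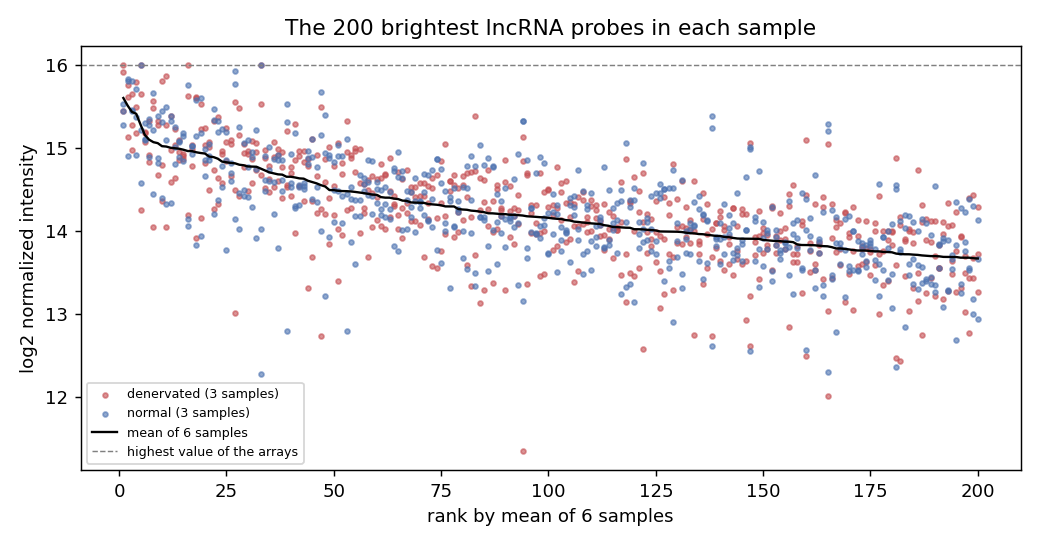
Log2 normalized intensity (vertical axis) of the 200 brightest lncRNA probes in order of rank by their mean of 6 samples (horizontal axis), with 1 point per probe and sample, denervated in red and normal in blue, and the mean as a line. The points of both groups surround the line over the whole range, and few touch the dashed line at the highest value of the arrays.

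The brightest probe was lncRNA4754, the rat match of the mouse transcript NR_028258 at chr20:7091299-7093166 on the reverse strand. It read 15.91, 15.99 and 15.45 in denervated samples and 15.44, 15.53 and 15.28 in normal samples. Its groups overlapped only in that denervated sample 3 lay under normal sample 2. The second was lncRNA4289, a match of NR_033222 at chr6:100948491-100950305, with 15.75, 15.61 and 15.14 in denervated samples and 14.91, 15.83 and 15.81 in normal samples. Its normal samples enclosed every denervated value. Next came lncRNA3363 on chromosome 17 (NR_045285), with a mean of 15.43, and lncRNA3146 on chromosome 11 (NR_035407), with a mean of 15.41. lncRNA3146 covers a span of only 85 bases. The fifth, lncRNA5708 (XR_146287.1), read 15.65, 14.25 and 15.99 in denervated samples and 15.21, 15.99 and 14.58 in normal samples, so its 6 values spread over 1.74 log2 units. The sixth, lncRNA1066, is an Ensembl transcript (ENSRNOT00000063919) of 193 bases at chr16:68849188-68849380, and it read 15.19, 15.07 and 15.17 in denervated samples and 15.10, 15.30 and 15.10 in normal samples. It was among the steadiest of all 200, with an SD of 0.0844 over the 6 samples. The other members of the first 10 were lncRNA1413 (ENSRNOT00000071542), lncRNA645 (NR_029761, a span of 94 bases), lncRNA4816 (ENSRNOT00000039752) and lncRNA2754 (NR_027380), with means of 15.10, 15.07, 15.06 and 15.02. No transcript of the first 10 has a gene name in the annotation used here.

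Saturation touched few of these probes. Each array had the highest value at 15.9926 to 15.9946, the top of the scale of a 16-bit scan. Within 0.1 of it lay 8 of the 1200 values, from 5 of the 200 probes, and no other ranked probe came so near on any array. No probe was there on all 6 arrays, and none on more than 2. They included lncRNA4754 and lncRNA5708 above. lncRNA1674 (ENSRNOT00000005818) read 15.99, 14.19 and 15.63 in denervated samples and 14.14, 15.75 and 14.06 in normal samples. lncRNA6525 (NR_033563) read 13.01, 15.55 and 14.49 in denervated samples and 15.92, 14.14 and 15.76 in normal samples. lncRNA5738 (NR_038088) read 15.53, 14.67 and 15.99 in denervated samples and 12.28, 15.99 and 14.02 in normal samples. In 4 of the 5, lncRNA4754 being the exception, other samples of the same group lay more than 1 log2 unit below the ceiling, so the ceiling was reached by single samples and not by a group. Within 0.5 of the ceiling lay 15 of the 200.

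Among the named genes, the highest microRNA gene was Mir935 at rank 14. It read 15.09, 14.95 and 14.85 in denervated samples and 15.07, 15.08 and 14.89 in normal samples, a narrow band in which the groups overlapped. Mir702 (rank 19) read 14.16, 15.22 and 15.53 in denervated samples and 13.94, 15.60 and 15.18 in normal samples, with 1 low sample in each group. Mir328 (rank 28), a microRNA found in mouse to repress the beta-secretase Bace1, read 15.15, 15.48 and 14.42 in denervated samples and 14.02, 14.46 and 15.25 in normal samples. Its difference of 0.44 ± 0.46 (moderated SE of limma, n = 3 each) on the log2 scale was within its error. Mir150 (rank 102), best known from mature lymphocytes, read 14.27, 14.77 and 13.82 in denervated samples and 14.31, 13.50 and 14.20 in normal samples, and the groups overlapped. Mir3573 (rank 112) had the second smallest SD of all 200 at 0.0825, with values from 13.93 to 14.17. Mir3594, Mir3544, Mir3569 and Mir3578 were at ranks 56, 92, 125 and 187, and their log2 differences were 0.10, -0.19, -0.03 and 0.03. MicroRNA genes named through RefSeq rat transcripts made up 4.5% of the 200, against 4.37% of all ranked probes. Mouse matches were not counted, since their genes are not named here, and 19 of them among the 200 had a span of at most 150 bases.

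The 3 other named transcripts were Rn5-8s, the ribosomal RNA that pairs with the large ribosomal RNA of the same subunit, and the uncharacterised lncRNA genes LOC100910802 and LOC100910973. Rn5-8s (rank 48) read 14.87, 14.20 and 14.59 in denervated samples and 13.21, 14.93 and 15.40 in normal samples. The normal samples alone spanned the entire range of the gene. LOC100910802 (rank 136) and LOC100910973 (rank 168) had log2 differences of 0.05 and 0.08. Of the 12 transcripts with a symbol, none was in the lists looked up, which held small ribonucleoprotein RNAs, snoRNA hosts, brain lncRNAs and imprinted transcripts. The mouse-matched and Ensembl transcripts have no symbol in the annotation used here and were not looked up. Listed RNAs could therefore be among the brightest probes under a mouse or Ensembl accession, which was not tested. Members of these lists that were matched by symbol had lower ranks: Gas5, a host of snoRNAs, was at rank 3551 with a mean of 10.01, Rpph1, the RNA of ribonuclease P, at rank 3656 with 9.93, Terc, the telomerase RNA, at rank 4246 with 9.51, and Snhg4 at rank 6165 with 6.45. None of the 8 brain-associated noncoding transcripts looked up (Bc1, Meg3, Miat, Rmst, Snhg11, Nnat, Sox2ot and Dlx6os1) was matched by symbol. The lookup covered only RefSeq rat transcripts with a symbol, so it does not show that the array lacks them. The tissue label could not be checked against them in this way.

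Hairpin sequences were found for 265 of the 293 genes on the array that RefSeq types as microRNA. The 6 hairpins among the 200 brightest had a median of 57.5% G and C (46.2% to 79.1%), and the 259 others had a median of 49.4% (28.6% to 72.4%). Across the 265 genes, G and C content and mean intensity had a Pearson r of 0.4 and a Spearman rho of 0.42. This is a description across genes, which share the arrays and the labelling, and the part of base composition in the intensity was not tested. Mir935 had the highest G and C content of all 265 hairpins and the highest mean of the 6, while Mir3578 and Mir3573 had G and C contents below the median of the others.

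**Figure D2:**
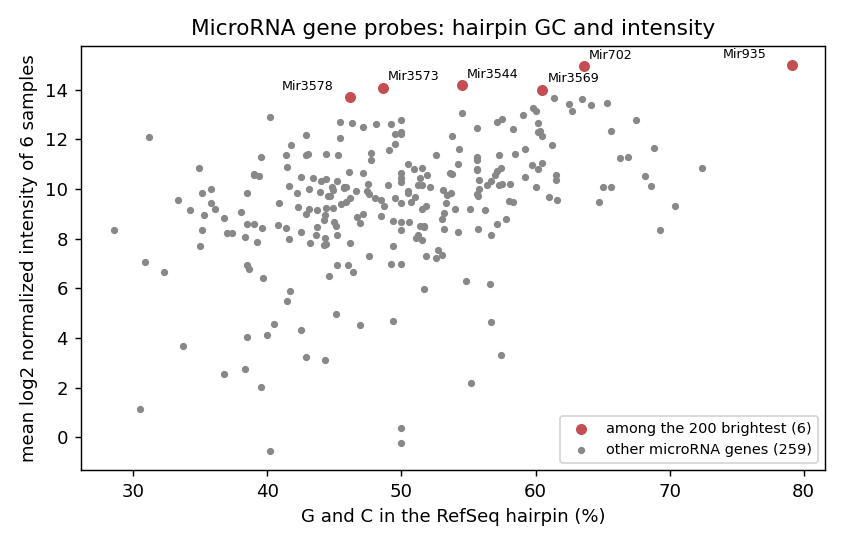
Mean log2 normalized intensity over 6 samples (vertical axis) of 265 microRNA gene probes against the percentage of G and C in their RefSeq hairpin (horizontal axis), with the 6 among the 200 brightest in red and named. Mir935 stands at the far right at 79.1%, and the 6 red points extend down to 46.2%.

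Some of the mouse-matched probes shared their mouse transcript. Of the 109, 26 (23.9%) belonged to a mouse transcript with at least 2 matches in rat, against 387 of 3356 (11.5%) over all ranked mouse matches. The transcript NR_033630 had 7 rat matches, all bright, at ranks 12, 45, 47, 53, 381, 475 and 774. NR_004448 had 5, of which 3 were among the 200, and NR_003630 had 4, of which 2 were. Each of these transcripts also has a match at the chromosome 4 position described below. The 26 therefore include related probes that are not independent of each other, and the share of 23.9% rests in part on them. Not all copies were bright: NR_033517 had 6 matches on chromosome 20, and lncRNA424 and lncRNA3690, which overlap each other, were at ranks 13 and 15, but the other 4 were at ranks 2958 to 6502.

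One position stood out. At chr4:224693581-224697469 on the reverse strand, the array annotation placed 10 ranked probes from 10 different mouse transcripts, and 7 of them were among the 200. The other 3 were at ranks 274, 340 and 740. Of the 10 mouse transcripts, 5 had further rat matches elsewhere, which brought the probes of these transcripts to 26. All 26 were within the first 774 ranks, and 14 were among the 200, on 6 chromosomes. Probes of near-identical copies can bind the same RNA, and whether they did was not tested. The array annotation gives no gene name there.

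The 7 probes did not share one profile over the samples. lncRNA2005, the brightest of them, read 15.28, 15.87 and 14.04 in denervated samples and 15.09, 14.32 and 15.50 in normal samples. lncRNA579 read 13.03, 15.05 and 12.01 in denervated samples and 15.20, 12.30 and 15.29 in normal samples. lncRNA1723 read 13.59, 14.88 and 12.47 in denervated samples and 14.51, 12.37 and 14.55 in normal samples. These 3 were all low in denervated sample 3 and normal sample 2. lncRNA4443 read 15.33, 14.25 and 14.94 in denervated samples and 14.44, 15.10 and 12.80 in normal samples, and was high in those samples. lncRNA3904 stayed between 13.07 and 14.08. The groups overlapped for all 10 probes.

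**Figure D3:**
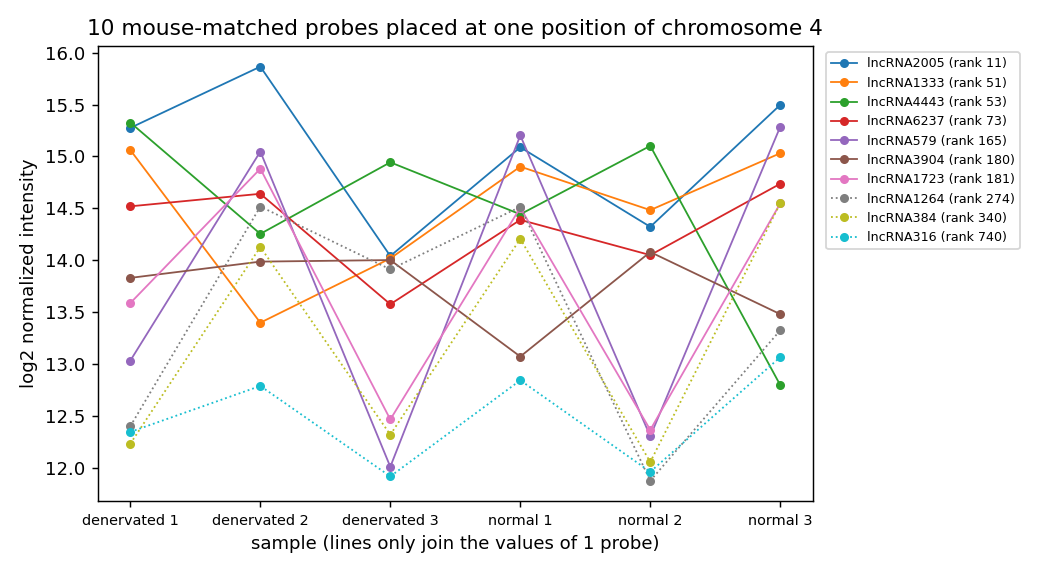
Log2 normalized intensity (vertical axis) in each of the 6 samples, denervated then normal (horizontal axis), of the 10 mouse-matched probes placed at 1 position of chromosome 4, solid for the 7 among the 200 brightest and dotted for the 3 at lower ranks. Several lines dip in denervated sample 3 and normal sample 2, while the green line of lncRNA4443 is high there.

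Across the 200 probes the samples did not group by treatment. Denervated sample 3 and normal sample 2 had the highest Pearson correlation of any pair at 0.78. Normal samples 1 and 3 followed at 0.73, and denervated sample 2 with normal samples 3 and 1 at 0.68 and 0.65. Denervated samples 2 and 3 had a correlation of 0.09, and normal samples 1 and 2 of 0.02. These correlations are of log2 values over the same 200 probes, whose range the choice of members narrowed, and are given as a description. Normal sample 2 held the highest of the 6 values for 58 probes, and denervated sample 2 the lowest for 49. The labels say that scans hold a pair of samples each without saying which ones, so a shared scan could not be entered as a batch. The part of the scan in this pattern was not tested.

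**Figure D4:**
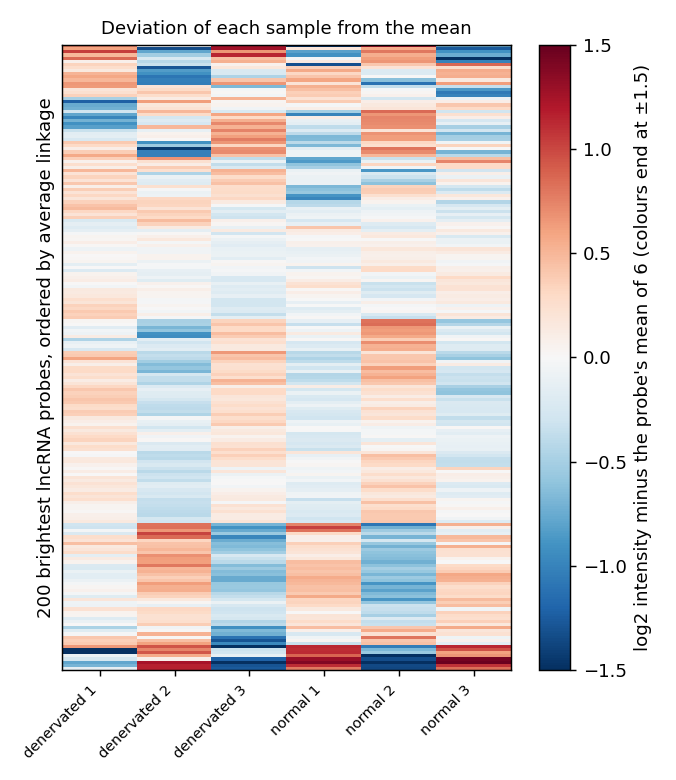
Deviation of each sample from the probe's mean of 6 in log2 units (colour, ending at ±1.5), for the 200 brightest probes (rows, ordered by average linkage) and the 3 denervated and 3 normal samples (columns). The columns of denervated sample 3 and normal sample 2 resemble each other (correlation of their values 0.78) and look unlike those of denervated sample 2, normal sample 1 and normal sample 3.

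The question of the study was which lncRNAs change in the hippocampus after denervation. Among the 200 brightest, no probe passed the methods' thresholds in limma, and 1 passed them with the rank product test. At the methods' thresholds, a log2 difference past 1 in size with an unadjusted p under 0.05 in limma, 0 of the 200 were higher after denervation, against 1.04% of all 6716 probes, and 0 were lower, against 0.298%. With Benjamini-Hochberg adjustment over all probes, 0 of the 200 were below an adjusted p of 0.05, against 0.0149% (1 probe), and each of the 200 had an adjusted p of 0.9999 in limma. At an unadjusted p under 0.05 in limma, 2 of the 200 (1.0%) remained, against 1.97%. The methods' t-test gave 6 of the 200 (3.0%) at an unadjusted p under 0.05, against 2.41% of all probes, and 0 after adjustment. The rank product test, which the methods also name, gave 15 (7.5%) at an unadjusted p under 0.05, against 24.0% of all probes. With a log2 difference above 1 as well, it called 1 of the 200 (0.5%) higher, lncRNA5738, against 7.73% of all probes. A log2 difference past 1 in size, without a test, was found for 1 of the 200 (0.5%), against 12.1% of all probes. With 3 samples a group, the smallest two-sided p of an exact permutation test is 0.1, so single probes could not pass 0.05 by that test. Without denervated sample 3 and normal sample 2, 0 were higher and 1 was lower at the methods' thresholds, lncRNA3322 with a log2 difference of -1.46 and an adjusted p of 0.5767 in limma.

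The 200 probes were steadier than the rest, both between groups and within them. The median size of the log2 difference was 0.156, against 0.309 for the other 6508 probes, and the 90th percentile was 0.453, against 1.16. The median within-group SD was 0.368, against 0.554. The differences ran between -0.965 and 1.3, against -5.95 to 7.15 for the rest, and 105 of the 200 were positive and 95 negative. The 200 next in rank were in between, with a median size of the difference of 0.218 and a median within-group SD of 0.423. A range over the 6 samples above 2 log2 units was found for 14 of the 200 (7.0%), against 31.9% of the rest. The log2 scale ends at the ceiling for bright probes, and its part in their narrower spread was not tested. The rest included probes of very low signal, such as Mir3551 with a mean of -0.55. The part of low signal in the wider spread of the rest was not tested either.

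**Figure D5:**
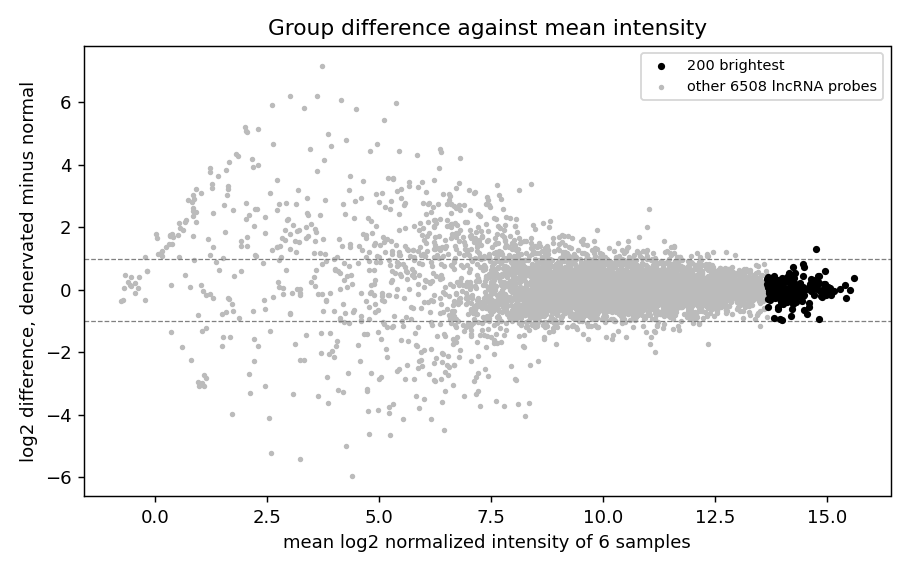
Log2 difference, denervated minus normal (vertical axis), against mean log2 normalized intensity over 6 samples (horizontal axis), for the 200 brightest probes in black and the other 6508 in grey, with dashed lines at 1 and -1. The black points lie between -0.965 and 1.3 and 1 of them is outside the dashed lines.

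The values of the 2 groups did not overlap for 10 of the 200. In 6 of them (3.0%) every denervated sample was above every normal one, against 3.37% of all probes, and in 4 (2.0%) every denervated sample was below, against 2.53%, so the shares were near those of the array as a whole. Without denervated sample 3 and normal sample 2, which leaves 2 samples a group, 65 of the 200 (32.5%) did not overlap, against 42.1% of all probes. The farthest apart downward was lncRNA356, a match of NR_027478 at chr8:114495894-114497488. It read 13.52, 13.94 and 13.07 in denervated samples and 14.46, 14.40 and 14.56 in normal samples. The log2 difference was -0.97 ± 0.32 (moderated SE, n = 3 each), with an unadjusted p of 0.0235 and an adjusted p of 0.9999 in limma. The farthest apart upward was lncRNA1750 (ENSRNOT00000045094), which read 14.96, 14.71 and 14.99 in denervated samples and 14.37, 13.60 and 14.18 in normal samples. The log2 difference was 0.84 ± 0.31 (moderated SE, n = 3 each), with an unadjusted p of 0.0374 and an adjusted p of 0.9999 in limma.

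The mouse transcript of lncRNA356 had a second match among the 10. lncRNA2756, at chr4:179879325-179880056, read 14.48, 14.60 and 14.60 in denervated samples and 13.31, 14.41 and 14.36 in normal samples, every denervated sample being the higher. Both probes are named from the mouse transcript NR_027478, and their differences of -0.97 and 0.53 had opposite signs. Another match on chromosome 15, lncRNA1403 at rank 487, read 12.93, 13.57 and 13.07 in denervated samples and 12.85, 12.56 and 12.75 in normal samples. The remaining non-overlapping probes were lncRNA4583, lncRNA4600, lncRNA6544 and lncRNA6620, higher by 0.31 to 0.54 on the log2 scale in denervated samples, and lncRNA4331, lncRNA3099 and lncRNA12, which had differences of -0.54, -0.27 and -0.19.

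The largest differences of means were mostly in probes whose groups overlapped. lncRNA5738, at 1.3 ± 0.97 (moderated SE, n = 3 each), was the only one past 1 in size. Its values above show a low normal sample 1 and normal sample 2 at the ceiling. Denervated sample 3 was at the ceiling too, so the size of the difference is not exact. With 1 sample left out the difference was between 0.39 (without normal sample 1) and 2.25 (without normal sample 2). lncRNA4217 (NR_002597.1), lncRNA4443 and lncRNA1674 followed lncRNA1750 with differences of 0.73, 0.73 and 0.62. These also turned on single samples: lncRNA4217 was at 0.35 without denervated sample 3 and 1.19 without normal sample 2, lncRNA4443 at 0.07 without normal sample 3 and 1.22 without normal sample 2, and lncRNA1674 at 0.25 without denervated sample 1 and 1.17 without normal sample 2. lncRNA3322 (NR_037604) read 13.68, 14.02 and 12.73 in denervated samples and 15.24, 12.61 and 15.38 in normal samples, a difference of -0.93 with normal sample 2 the lowest of all. With 1 sample left out the difference was between -1.83 (without normal sample 2) and -0.45 (without normal sample 3). lncRNA6525 and lncRNA579 had differences of -0.93 and -0.90. They were at -0.26 without denervated sample 1 and -1.52 without denervated sample 2 for lncRNA6525, and at -0.22 without denervated sample 3 and -1.88 without normal sample 2 for lncRNA579. lncRNA1519 (NR_030251) had the largest SD of all 200 at 1.61: it read 14.84, 15.13 and 11.35 in denervated samples and 15.32, 13.15 and 15.32 in normal samples. Its difference of -0.82 became 0.39 without denervated sample 3. At the other end lncRNA3076 (ENSRNOT00000039721) varied least, with an SD of 0.071 and values from 13.73 to 13.90.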

How the data were processed

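RNA of 3 denervated and 3 normal rat hippocampi was labelled with Cy5 and hybridized to 1-colour lncRNA arrays. The deposited values are log2 normalized intensity, which the authors scaled by a 50% scaling method, taking the median of repeated probes and the mean of repeated arrays. Background correction, filters and the genome build of the probe positions are not given in the sources used here. A second deposited table held the same values (largest difference 0.0). The authors' lists of changed probes, which hold fold changes and p-values, were not used. One line of the table and 3 lncRNA probes are not reported here.

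Probes were ranked by their mean over 6 arrays. Differences (denervated minus normal) were tested with limma 3.58.1 in R 4.3.3, with Benjamini-Hochberg adjustment over 6716 probes and no covariate. The SE given with a difference is limma's moderated SE, which draws on the variance of all probes. The fit was tested on simulated data. Samples of a group are taken to be from separate rats, as the methods imply. In the main fit, samples of the same replicate number were not taken as pairs. The correlations of same-numbered deviations were -0.05, -0.52 and -0.35. They cannot show which samples belong together, since the main sample pattern of these probes crossed the groups. Named were the 10 brightest probes, those with a RefSeq symbol, the 5 largest differences each way, the 3 on either side of the rank limit, the 3 lowest and highest SDs, and members of fixed lists. lncRNA356's relatives, the position on chromosome 4 and non-overlapping probes were named after their values were seen. Lists and probes were chosen with earlier results of these data known. Alternatives were another scaling, test, threshold, ranking and sample set.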

Additional observations from a re-analysis of the deposited data

How the results depend on the processing

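The 3 samples a group limit the precision, and signal over background could not be judged from these values. No probe of the 200 passed the methods' thresholds in the full limma fit. Leaving out 1 sample at a time gave 0 to 1 higher and 0 to 2 lower, namely lncRNA5738 higher and lncRNA356 and lncRNA3322 lower without normal sample 2, lncRNA1333 lower without denervated sample 1 and lncRNA356 lower without denervated sample 2. The rank product test gave 1 higher, and a 1.5-fold threshold gave 1 higher (lncRNA1750) and 1 lower (lncRNA356). The count of non-overlapping probes was 10 with all samples and 11 to 47 with 1 sample left out (18, or 9.0% of the 200, without denervated sample 1, against 9.69% of all probes; 35, or 17.5%, without denervated sample 2, against 15.1%; 25, or 12.5%, without denervated sample 3, against 19.9%; 18, or 9.0%, without normal sample 1, against 11.9%; 47, or 23.5%, without normal sample 2, against 26.3%; 11, or 5.5%, without normal sample 3, against 9.59%), where fewer samples make non-overlap easier to meet. Without both denervated sample 3 and normal sample 2, a choice made after seeing the data, 65 probes did not overlap, 1 was lower and the median size of the difference was 0.228. The difference of lncRNA1519 was -1.55 to 0.39 with 1 sample left out, positive without denervated sample 3. With the replicate block, 0 were higher and 0 lower, and 0 of the 200 were at an unadjusted p under 0.05 (against 0.923% of all probes), so lncRNA356 and lncRNA1750 lost theirs, as they did without denervated sample 3 or without normal sample 3. Each result was counted once per alternative. Of the other values, 76 of the main results moved by less than the limit set (1.5 times for counts). These include the median size of the difference, which was 0.156 with all samples. With 1 sample left out it ran from 0.14 (without denervated sample 1) to 0.261 (without normal sample 2). For the named probes, 189 values, several per probe, kept their direction and their side of an adjusted p of 0.05, or for mean intensities moved by less than 1 SD. Ranking by normal arrays alone kept 181 of the 200, by denervated arrays alone 186, and by the lowest of 6 arrays 169.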

Other observations

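Some probes outside the 200 were among the brightest of a single array. lncRNA3222, an Ensembl transcript at rank 246, was 28th in normal sample 1, where it read 14.92, and it read 12.87, 14.81 and 11.80 in denervated samples and 11.73 and 14.87 in the other normal samples. lncRNA893 at rank 447 was 39th in denervated sample 2, with 12.95, 14.74 and 11.28 in denervated samples and 14.00, 11.10 and 14.05 in normal samples. lncRNA6112 at rank 223 read 13.05, 14.70 and 12.09 in denervated samples and 14.78, 12.02 and 14.91 in normal samples. All 3 were low in denervated sample 3 and normal sample 2. lncRNA6264 at rank 350, a match of NR_003630, was 40th in denervated sample 2.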
